A study of Mus musculus with 23 samples.

Results

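The genes described here are 10 genes of blood vessel endothelium and angiogenesis (Pecam1, Cdh5, Kdr, Flt1, Tek, Vegfa, Angpt2, Vcam1, Icam1 and Sele), of 26869 genes in the expression table. They were chosen by gene name and not by a threshold on their values, although earlier results of these data were known, and each mouse symbol was matched to its Ensembl identifier in GENCODE vM21 on GRCm38. Their RNA was measured by bulk RNA-seq in 23 tumors of MC38, a colon carcinoma cell line of C57BL/6 origin, in F1 hosts from matings of C57BL/6J with 6 strains of the Collaborative Cross, a panel of inbred mice that mix the genomes of several founder strains. Every host was a female aged 8 to 12 weeks with MC38 cells placed under the skin, and once its tumor reached between 75 and 110 mm3 it was given 200 µg of an antibody, either the isotype control 2A3 or the anti-PD-1 antibody 29F.1A12 (aPD1), and was killed 48 h afterwards. The comparisons ask how these genes differ between hosts whose line responds to aPD1 and hosts whose line does not, and how they change with the antibody.

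The responder (R) lines were CC001F1 (C57BL/6J x CC001/UncJ), CC002F1 (C57BL/6J x CC002/UncJ) and CC075F1 (C57BL/6J x CC075/UncJ). The non-responder (NR) lines were CC036F1 (C57BL/6J x CC036/UncJ), CC079F1 (C57BL/6J x CC079/TauUncJ) and CC080F1 (C57BL/6J x CC080/TauUncJ). Each line had 2 isotype and 2 aPD1 tumors, except CC080F1 with 1 aPD1 tumor, so that there were 12 R tumors (6 isotype, 6 aPD1) and 11 NR tumors (6 isotype, 5 aPD1). Line and antibody came from the labels, and the class of each line from the study's text. A class is 3 lines, so a difference between the classes and a difference between particular lines of unlike genotype cannot be told apart. All tumors carry the same cancer cells, while vessels and leukocytes are of the host.

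Endothelial cells line the vessels and are held together by the junction proteins CD31 (Pecam1) and VE-cadherin (Cdh5). Their growth in tumors is driven by vascular endothelial growth factor A (Vegfa), which oxygen-starved cells secrete and which is read by the receptor VEGFR2 (Kdr), while VEGFR1 (Flt1) binds it tightly and signals weakly. The receptor TIE2 (Tek) keeps vessels quiescent, and angiopoietin 2 (Angpt2), released by endothelial cells themselves, loosens that state. E-selectin (Sele), ICAM-1 (Icam1) and VCAM-1 (Vcam1) are the adhesion molecules by which inflamed endothelium catches leukocytes, and the latter pair is also made by leukocytes, stromal cells and some cancer cells.

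On GRCm38 the junction genes are Pecam1 (ENSMUSG00000020717, chr11:106654217-106750628, minus strand) and Cdh5 (ENSMUSG00000031871, chr8:104101625-104144511, plus strand). The receptors are Kdr (ENSMUSG00000062960, chr5:75932827-75978458, minus), Flt1 (ENSMUSG00000029648, chr5:147561604-147726011, minus) and Tek (ENSMUSG00000006386, chr4:94739289-94874976, plus). The secreted factors are Vegfa (ENSMUSG00000023951, chr17:46016993-46032369, minus) and Angpt2 (ENSMUSG00000031465, chr8:18690263-18741562, minus). The adhesion genes are Vcam1 (ENSMUSG00000027962, chr3:116109949-116129688, minus), Icam1 (ENSMUSG00000037405, chr9:21015985-21028817, plus) and Sele (ENSMUSG00000026582, chr1:164048234-164057677, plus). Each value sums the reads assigned to any transcript of the gene, UTRs and coding exons alike.

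Promoter sequence from RefSeq on GRCm38.p6 was at hand for 6 of the 10 genes (Kdr, Flt1, Tek, Vegfa, Icam1 and Sele). The 250 bases before the transcript start are shown for Icam1, which was called in every comparison between the classes, and for the receptors Kdr and Flt1, which moved together across tumors. Capitals mark ETS elements (CCGGAA or AGGAAG, bound by ETS factors that act in endothelium), read on either strand.
Icam1, chr9:21015690-21015939, plus strand: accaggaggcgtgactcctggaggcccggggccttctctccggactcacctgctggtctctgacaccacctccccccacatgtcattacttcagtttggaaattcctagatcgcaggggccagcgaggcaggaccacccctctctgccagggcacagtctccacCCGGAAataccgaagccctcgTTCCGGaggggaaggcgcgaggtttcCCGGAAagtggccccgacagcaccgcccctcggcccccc
Kdr, chr5:75978456-75978705, minus strand: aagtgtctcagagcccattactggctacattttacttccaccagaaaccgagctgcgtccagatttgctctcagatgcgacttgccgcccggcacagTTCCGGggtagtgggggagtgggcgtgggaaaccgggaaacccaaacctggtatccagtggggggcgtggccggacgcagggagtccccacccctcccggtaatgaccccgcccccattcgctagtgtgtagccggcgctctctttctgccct
Flt1, chr5:147726012-147726261, minus strand: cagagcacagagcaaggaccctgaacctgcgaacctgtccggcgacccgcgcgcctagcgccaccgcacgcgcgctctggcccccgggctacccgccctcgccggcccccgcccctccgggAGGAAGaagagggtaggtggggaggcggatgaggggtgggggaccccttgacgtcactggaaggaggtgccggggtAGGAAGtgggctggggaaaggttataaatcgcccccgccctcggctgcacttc
The 3 ETS matches of Icam1 begin 86, 65 and 39 bases before the start. The ETS match of Kdr begins at 153 bases, and those of Flt1 at 129 and 53 bases. Over 32851 RefSeq promoter windows of the same length, 38.2% held an ETS match. The Sele window (chr1:164047984-164048233) held 1 ETS match 65 bases before the start, and 38.6% of windows held a hypoxia core (ACGTG or GCGTG). Of the 2 Vegfa windows the first (chr17:46032378-46032627) lies upstream of the gene and held no hypoxia core. The second (chr17:46025164-46025413) lies inside the Vegfa gene, downstream of the first. It held 2 hypoxia cores, at 218 and 211 bases before its own start, which are thus within the gene and not upstream of it. The Kdr window held 2 hypoxia cores, and those of Flt1 and Icam1 held 1 each. Matches to the kappa B element, searched only as GGGRNNYYCC (R is A or G, Y is C or T, N is any base), were found in 7.25% of windows. They lay in the Kdr, Flt1 and first Vegfa windows, and the Tek window (chr4:94739039-94739288) matched none of these 3 motifs. A match says only that these letters are in the window, and the lack of a match does not exclude a site with other letters.

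Library totals ran from 14494014 to 71868253 counts, with 6 shallow libraries of at most 18354585 counts (2 R, 4 NR) and 17 deep ones of at least 37242363. Values below are counts divided by DESeq2 size factors (normalized counts), and a difference is a log2 ratio from DESeq2 with its standard error. A gene was called at a Benjamini-Hochberg adjusted p under 0.05 over all genes tested. All 24 genes of an endothelial identity list were detected in each group. The line CC036F1 stood apart from the other 5 in these genes, and 3 tumors held transcripts of lymph node: Glycam1, a sulfated ligand of high endothelial venules, had 387 counts in CC002F1 isotype 1, 339 in CC079F1 aPD1 1 and 309 in CC080F1 aPD1 1, and 0 in the other 20 tumors. Counts and calls are given again without the line or the tumors where that changed them. Because the samples are whole tumors, fewer endothelial cells and less RNA per cell cannot be told apart.

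Per kilobase of exon, Vegfa stood highest at a mean of 3117 normalized counts per kb over the 23 tumors (range 1934 to 4938), and Vcam1 followed at 998 (720.0 to 1193). These ranges did not touch each other or those of the remaining genes. The junction genes Cdh5 (408 per kb, range 169 to 585) and Pecam1 (241, 115 to 415) and the adhesion gene Icam1 (182, 73.4 to 426) overlapped one another. Next came Angpt2 (119 per kb, 56.7 to 170), Kdr (90.7, 26.4 to 159) and Flt1 (87.0, 48.8 to 113), which could not be ordered beyond their spread. Tek was low at 16.8 per kb (3.31 to 36.2), below every tumor's Flt1 but not below every tumor's Kdr.

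Sele was near the detection limit, with 171 counts over the 23 tumors, 0 in 4 of them and a highest normalized count of 18.6. It passed DESeq2's filter on low counts in only some of the fits, and its differences are not interpreted. Across all tumors Vcam1 varied least, with a coefficient of variation of 12.8% (6386 to 10582 normalized counts). The coefficient of variation was 22.4% for Flt1, 24.3% for Cdh5, 24.8% for Angpt2, 25.7% for Vegfa, 32.3% for Pecam1, 34.6% for Kdr, 43.7% for Icam1 and 47.9% for Tek. The plot of normalized counts by line shows where this spread lies.

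**Figure D1:**
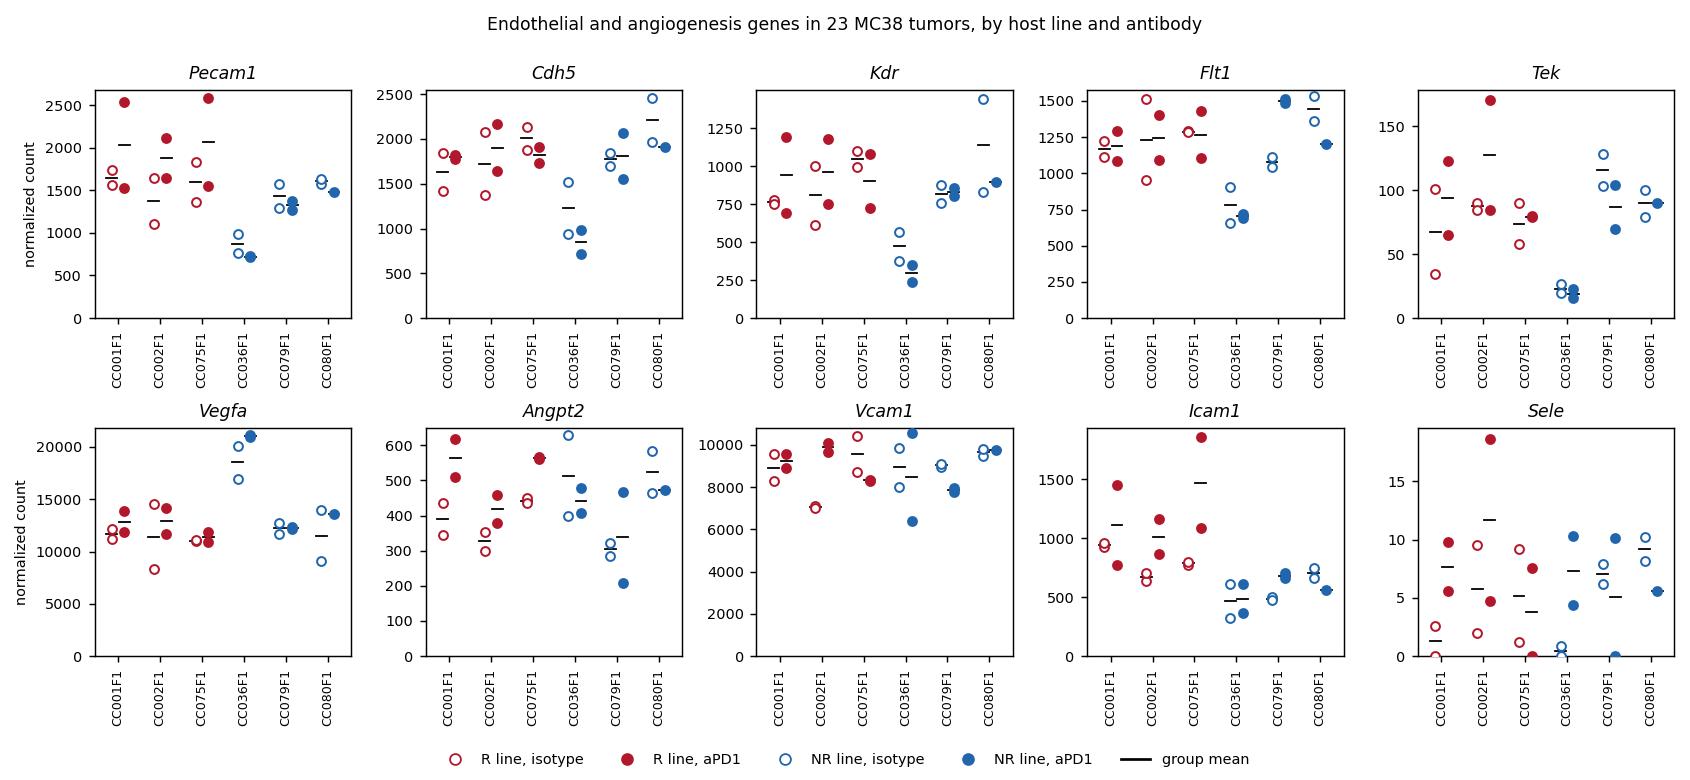
Normalized counts of the 10 genes (y axis, linear from 0, 1 panel a gene) in each tumor by host line (x axis), with open points for isotype, filled points for aPD1, red for R and blue for NR lines, and a black bar at the mean of each group of line and antibody. The 4 CC036F1 tumors lie lowest for Pecam1 (713 to 984), Kdr (238 to 567), Flt1 (659 to 908) and Tek (15.6 to 26.5) and highest for Vegfa (16966 to 21159).

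The strongest pattern was in 1 non-responder line. In CC036F1 tumors the vessel genes Tek, Kdr, Cdh5, Pecam1 and Flt1 were lower than in the other NR lines, and Vegfa was higher. Tek fell to 0.22 of the level in CC079F1 and CC080F1, Kdr to 0.41 and the others to between 0.54 and 0.56, while Vegfa stood 1.61-fold higher. Angpt2 and Vcam1 did not pass the test. This contrast, like that of each other line against the rest of its class, was added after the data were seen.

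Tek had normalized counts of 19.6 and 26.5 in the CC036F1 isotype tumors and 15.6 and 22.4 in the aPD1 tumors. In the 7 tumors of the other NR lines it ran from 69.4 over a median of 100.2 to 128, so the groups did not overlap. The difference was -2.18 ± 0.27 (SE, adjusted p = 1.65e-12), the widest of the 10 genes. Kdr, the main signalling receptor for VEGF-A, read 567 and 375 in isotype and 349.9 and 238 in aPD1 tumors of CC036F1, against 755 to 1439 (median 854) in the other NR tumors, a difference of -1.28 ± 0.18 (adjusted p = 8.24e-10). Again no CC036F1 tumor reached the lowest of the others. Flt1, the decoy receptor, read 908, 659, 689 and 722 in CC036F1, against 1041 to 1531 elsewhere in the class (-0.83 ± 0.13, adjusted p = 1.58e-08).

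The junction genes followed the receptors. Pecam1 read 984 and 759 in isotype and 731 and 713 in aPD1 tumors of CC036F1, all below the range of the other NR tumors, 1268 to 1636 (-0.87 ± 0.10, adjusted p = 2.27e-16). Cdh5, the gene of VE-cadherin, was 1519, 941, 983 and 711 in CC036F1 against 1554 to 2458 (-0.90 ± 0.15, adjusted p = 2.48e-07), and its highest CC036F1 tumor, isotype 1, lay above the lowest R tumor. Vegfa went the other way, at 16966 and 20087 in isotype and 21159 and 20934 in aPD1 tumors, against 9060.2 to 13986 (0.68 ± 0.10, adjusted p = 8.65e-10). All 4 CC036F1 tumors were below all 19 other tumors for Pecam1, Kdr, Flt1 and Tek and above all 19 for Vegfa, where 0.918% of genes stood wholly below and 0.754% wholly above.

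In this contrast 6 of the 10 genes were called, 5 lower and 1 higher, against 10.3% of the 17837 genes tested (5.48% lower, 4.8% higher). The genes that did not pass were Angpt2 at 0.26 ± 0.23 (adjusted p = 0.577), Vcam1 at -0.03 ± 0.11 (adjusted p = 0.918), Icam1 at -0.38 ± 0.19 (adjusted p = 0.207) and Sele, with a DESeq2 adjusted p of 0.598. Icam1 was called, at -0.58 with a DESeq2 adjusted p of 0.0294, when CC036F1 isotype 1 was left out. Each of the 6 called genes kept its call in every alternative run and with every tumor left out in turn. In the deep libraries alone the DESeq2 differences were -2.25 for Tek, -1.42 for Kdr, -1.12 for Cdh5, -0.96 for Pecam1, -0.90 for Flt1 and 0.68 for Vegfa. None of the other 5 lines had a member called against the rest of its class, where 0.409% of genes were called for CC001F1, 0.4% for CC002F1, 0.333% for CC075F1, 0.444% for CC079F1 and 1.04% for CC080F1.

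Other endothelial genes moved the same way in CC036F1. Of 24 genes of endothelial identity, 20 were called, 19 lower and 1 higher, with a median of -1.10 against -0.00 over all genes tested. Among the lower were -1.32 ± 0.16 for Plvap, the diaphragm protein of fenestrated endothelium, -1.44 ± 0.18 for Mmrn2, a matrix protein of endothelial cells, -1.51 ± 0.20 for Tie1, the partner receptor of TIE2, and -1.53 ± 0.21 for Nos3, the endothelial nitric oxide synthase. Vwf, the clotting factor that endothelial cells store, was the 1 higher gene (0.62 ± 0.19), and was named after its value was seen. The summed level of the list, mostly a reading of Cd34 and Cd93, ran from 16684 to 18592 normalized counts in CC036F1. It ran from 20261 to 24434 in the other NR tumors.

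Of 10 tip cell and Notch genes 4 fell and none rose: Aplnr, the apelin receptor of sprouting vessels (-3.27 ± 0.35), Hey1 (-1.32 ± 0.31), Dll4, the Notch ligand of tip cells (-1.08 ± 0.20), and Unc5b (-0.40 ± 0.13). Among 12 further angiogenic ligands and receptors 4 fell and none rose, with Flt4, the VEGF-C receptor of lymphatic vessels, at -2.02 ± 0.23, Angptl4 at -0.79 ± 0.21, Pdgfb at -0.56 ± 0.13 and Nrp1 at -0.48 ± 0.12. Of the 7 tested genes of leukocyte adhesion to endothelium, Jam2, Icam2, Jam3 and F11r fell (-2.15, -1.43, -1.08 and -0.94) and none rose. Icam2 is also on the identity list.

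Genes of pericytes, the cells that wrap small vessels, were lower as well. Of 7 pericyte genes 6 fell in CC036F1, among them Abcc9 (-1.28 ± 0.23), Mcam (-1.22 ± 0.16), Rgs5 (-0.92 ± 0.15) and Pdgfrb (-0.63 ± 0.13), and the summed list ran from 5635 to 11474 against 12725 to 14441 in the other NR tumors. Of 10 genes induced by low oxygen 9 rose and none fell, with the glucose transporter Slc2a1 at 1.09 ± 0.12, the mitophagy gene Bnip3 at 1.04 ± 0.13, Ndrg1 at 0.86 ± 0.12 and Ldha at 0.47 ± 0.07. The summed list, mostly a reading of its most abundant genes Ldha and Pgk1, ran from 135491 to 182583 in CC036F1. This was above the 79987 to 111897 of the other NR tumors.

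Markers of other cells moved with these genes. Fibroblast genes fell for 5 of 7, with sums of 75962 to 155823 in CC036F1 and 146312 to 202653 in the other NR tumors, and macrophage genes for 3 of 8 (57705 to 100585 against 90220.4 to 121959). Such sums weigh abundant genes most, here Col3a1 and Dcn for fibroblasts and Lyz2 and Apoe for macrophages. Of 4 T cell genes tested, and of 4 platelet genes tested, 0 were called, and 2 of 6 genes of NF-kappaB feedback rose (Tnfaip2 by 0.49 and Tnfaip3 by 0.39). The T cell sums ran from 320.0 to 687 in CC036F1 and from 189 to 1212 elsewhere in the class. Among 5 adipocyte genes 3 fell (sums of 1.77 to 17.4 against 8.26 to 375, with 1 gene at 0 throughout CC036F1), and so did Acta1, of 2 skeletal muscle genes tested, Cr2, of 3 tested lymph node genes, and Itga4, of 8 leukocyte partners. Of 4 lymphatic genes tested, Flt4 fell and Pdpn rose. Their part in the result was not tested. Without the tumors with lymph node transcripts all 6 member calls stood, where 931 of 18251 genes were called. By list, called genes were 17 of 24 for endothelial identity (16 lower), 4 of 7 for pericytes and 7 of 10 for hypoxia. They were 2 of 6 tested for adhesion to endothelium and 2 of 7 for fibroblasts.

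**Figure D2:**
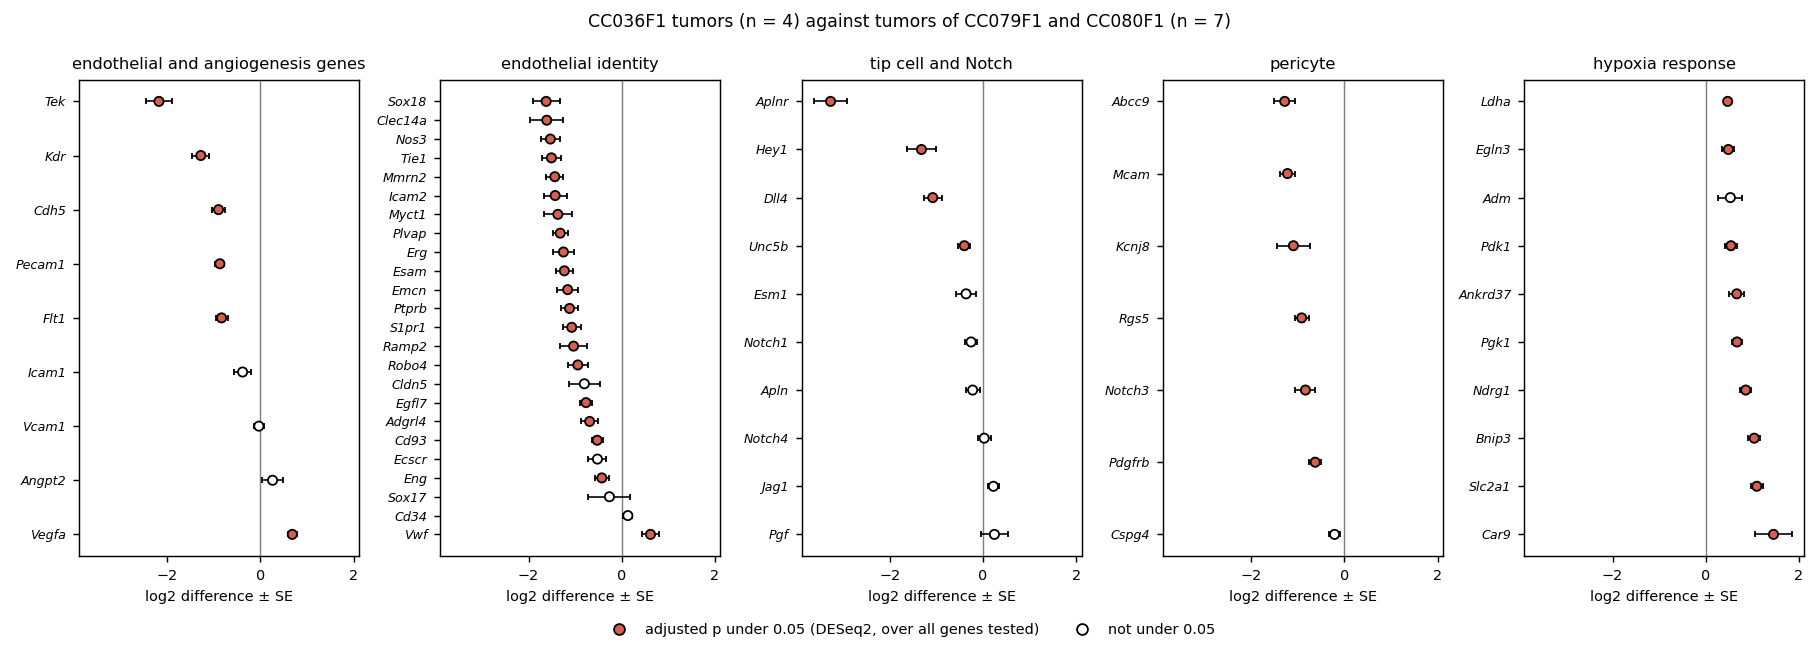
Log2 difference with its standard error (x axis) of CC036F1 (n = 4) against CC079F1 and CC080F1 (n = 7) for each gene of 5 lists (rows), with filled points for genes called at an adjusted p under 0.05. Endothelial, tip cell and pericyte genes lie mostly left of 0 and hypoxia genes right of it, while Vegfa (0.68) lies apart from the receptors Kdr (-1.28), Flt1 (-0.83) and Tek (-2.18).

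Between responder and non-responder lines, Icam1 and Pecam1 were higher in R tumors and Vegfa was lower. In a fit of the 23 tumors that allowed for the antibody, Icam1 was 1.72-fold higher in R tumors, Pecam1 1.44-fold higher and Vegfa at 0.79 of the NR level. The growth factor receptors, Cdh5, Angpt2 and Vcam1 did not pass the test. Of the 9 genes tested 3 were called, against 14.4% of 17643 genes (7.66% higher, 6.78% lower), and the median difference of the 9 was 0.17, against -0.00 over all genes. These p-values treat tumors of a line as independent, and since Pecam1 and Vegfa differed between lines of a class in a likelihood ratio test (DESeq2 adjusted p of 0.00091 and 3.33e-05), they are too small for those genes. For Icam1 they may be too small as well, since finding no line difference does not make tumors of a line independent. With line as a random term in limma, Icam1 (adjusted p = 0.00313) and Pecam1 (adjusted p = 0.019) were called over the 23 tumors and Vegfa was not (-0.35, adjusted p = 0.0778).

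Icam1, the ligand of the leukocyte integrin LFA-1, ran in R tumors from 639 over a median of 893 to 1857 normalized counts and in NR tumors from 320.0 over 610.1 to 748. The means were 999 ± 352 (SD, n = 12) and 565 ± 138 (SD, n = 11), and 2 R tumors, both isotype tumors of CC002F1, lay within the NR range. The difference was 0.78 ± 0.15 (adjusted p = 1.95e-05). It was 0.91 in the deep libraries alone (DESeq2 adjusted p = 0.00015) and 0.64 without CC036F1 (DESeq2 adjusted p = 0.00113). By line, Icam1 means were 1028 in CC001F1, 841 in CC002F1 and 1128 in CC075F1, above the 476 in CC036F1, 585 in CC079F1 and 658 in CC080F1, where 12.9% of genes had all R line means above all NR line means.

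Pecam1 ran from 1103 over 1646 to 2583 in R tumors and from 713 over 1290.1 to 1636 in NR tumors, with a wide overlap. The difference was 0.52 ± 0.17 (adjusted p = 0.0201), and 0.67 in the deep libraries (DESeq2 adjusted p = 0.009). Its line means also stood apart, as they did for 12.9% of genes, at 1839, 1628 and 1830.0 in CC001F1, CC002F1 and CC075F1 against 797, 1378 and 1564 in CC036F1, CC079F1 and CC080F1. The gap between CC002F1 (SD 415, n = 4) and CC080F1 (SD 78.1, n = 3) was small beside the spread within CC002F1. Without CC036F1 the Pecam1 difference was 0.25 and no longer called (DESeq2 adjusted p = 0.21).

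Vegfa ran from 8289 to 14527 in R tumors and from 9060.2 to 21159 in NR tumors, a difference of -0.34 ± 0.12 (adjusted p = 0.0311). Without CC036F1 it was -0.05 (DESeq2 adjusted p = 0.8), and in edgeR it was not called with all tumors in (adjusted p = 0.0848). The call was also lost when CC002F1 isotype 1, CC075F1 aPD1 1 or any 1 of the CC036F1 tumors was left out, with DESeq2 adjusted p from 0.0531 to 0.0867. Kdr (0.33 ± 0.23, adjusted p = 0.372), Tek (0.36 ± 0.31, adjusted p = 0.512), Cdh5 (0.19 ± 0.17, adjusted p = 0.517) and Flt1 (0.15 ± 0.13, adjusted p = 0.52) were not called. Each of these 4 turned to a value below 0 without CC036F1 (-0.02, -0.15, -0.09 and -0.10). Angpt2 differed by 0.05 ± 0.15 (DESeq2 adjusted p = 0.872) and Vcam1 by -0.01 ± 0.08 (DESeq2 adjusted p = 0.969, 95% interval -0.16 to 0.15).

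Few other endothelial genes differed between the classes. Of 24 identity genes 2 were called, both higher in R tumors: Cd93, a lectin-like receptor of endothelium and myeloid cells (0.54 ± 0.10, adjusted p = 2.05e-05), and Adgrl4, an adhesion receptor (0.42 ± 0.15, adjusted p = 0.0437). The list's sum ran from 22136 to 30531 in R tumors, from 20261 to 24434 in the CC079F1 and CC080F1 tumors and from 16684 to 18592 in CC036F1. This sum is mostly a reading of Cd34 and Cd93, the most abundant genes of the list. Notch1 was the 1 of 10 tip cell and Notch genes called (0.52 ± 0.11), and among 12 ligands and receptors Pdgfb (0.50 ± 0.12) and Nrp2 (0.22 ± 0.06) were higher and Vegfc (-0.27 ± 0.09) lower. Of 7 tested genes of adhesion to endothelium Cd99l2 was lower (-0.23 ± 0.07), and of the 7 pericyte, 6 NF-kappaB feedback, 4 tested lymphatic and 4 tested lymph node genes 0 were called.

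Leukocyte genes moved with Icam1. Of 8 leukocyte partners of the adhesion genes 6 were higher in R tumors, led by Itgb7 (1.26 ± 0.19), Itgal, the LFA-1 alpha chain (1.03 ± 0.17), Itgb2, the LFA-1 beta chain (0.71 ± 0.12) and Selplg, the selectin ligand PSGL-1 (0.68 ± 0.13), while Itgb1 was lower (-0.11 ± 0.03). T cell genes were higher for 5 of 6, with sums of 673 to 3057 in R and 189 to 1212 in NR tumors, and macrophage genes for 5 of 8 (73230.3 to 186092 against 57705 to 121959). Fibroblast genes were lower for 3 of 7 (Col3a1 at -0.82 ± 0.24, Pdgfra at -0.51 ± 0.15 and Dcn at -0.26 ± 0.10), and hypoxia genes for 5 of 10, among them Slc2a1 at -0.59 ± 0.21 and Adm at -0.69 ± 0.21. Of the platelet, adipocyte and skeletal muscle genes 0 were called. The part of these cells in the Icam1 and Pecam1 differences was not tested.

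Several of these counts changed without CC036F1. In that fit 1827 of 16797 genes were called, 1001 higher and 826 lower in R tumors. Hypoxia genes gave 0 calls of 10 in place of 5, and their median difference moved from -0.43 to -0.09. Of the identity genes Cd93 and Cd34 were called and Adgrl4 was not, and Unc5b and Esm1 were lower beside Notch1. Pericyte genes were lower in R tumors for 4 of 7 (Pdgfrb, Rgs5, Kcnj8 and Abcc9) in place of 0, and fibroblast genes for 4 of 7. Of the leukocyte partners 6 were higher, and so were 4 T cell and 4 macrophage genes. Without the tumors with lymph node transcripts 6 hypoxia genes and 1 fibroblast gene were lower, where 862 of 17388 genes were.

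**Figure D3:**
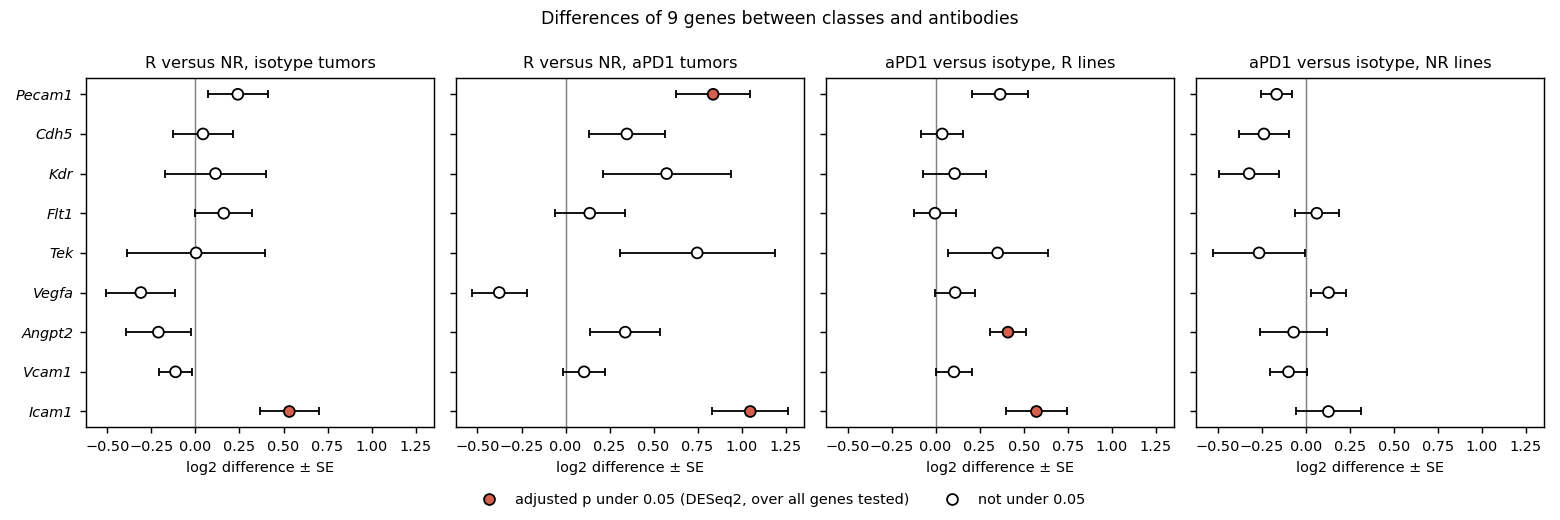
Log2 difference with its standard error (x axis) for 9 genes (rows, without Sele) in 4 comparisons (panels): R against NR lines among isotype tumors (n = 6 and 6) and among aPD1 tumors (n = 6 and 5), and aPD1 against isotype in R lines (n = 6 and 6) and in NR lines (n = 5 and 6), with filled points at an adjusted p under 0.05. Icam1 is filled in the first 3 panels (0.53, 1.05 and 0.57), Pecam1 in the second (0.84) and Angpt2 in the third (0.41), and no point is filled in the fourth.

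Among isotype tumors, which show the classes before any blockade, Icam1 was the 1 gene of 9 called, against 5.53% of 14995 genes (2.29% higher). It ran from 639 over 785 to 959 in R and from 320.0 over 556 to 748 in NR isotype tumors, with overlapping ranges, a difference of 0.53 ± 0.17 (adjusted p = 0.034). This call was fragile. It was lost without CC036F1 (0.42, DESeq2 adjusted p = 0.0984), in the deep libraries alone (0.63, DESeq2 adjusted p = 0.181), in edgeR (adjusted p = 0.143), in limma with line as a random term (adjusted p = 0.166) and when any 1 of 7 tumors was left out (CC001F1 isotype 1 or 2, CC075F1 isotype 1, CC036F1 isotype 1 or 2, CC079F1 isotype 1 or 2, with DESeq2 adjusted p of 0.051 to 0.11). Pecam1 differed by 0.24 ± 0.17 (DESeq2 adjusted p = 0.443), Vegfa by -0.31 ± 0.20 (DESeq2 adjusted p = 0.377) and Angpt2 by -0.21 ± 0.18 (DESeq2 adjusted p = 0.561). Cdh5, Kdr, Flt1, Tek and Vcam1 lay between -0.11 and 0.16. Of 24 identity genes Cd93 was the 1 called, and Notch1 was so in the tip cell and Notch list, both higher in R tumors. Thbs1, Cd99l2, the hypoxia gene Adm and the fibroblast gene Dcn were lower. Of 8 leukocyte partners 5 were higher, of 6 T cell genes 1 (Trac), and of 8 macrophage genes 0 were called. Without CC036F1 the calls of Cd93, Notch1, Cd99l2 and Adm were lost and 3 leukocyte partners were called, where 366 of 14774 genes were.

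Among aPD1 tumors both Icam1 and Pecam1 stood wholly apart, 2 of 9 genes called against 7.93% of 17156 (5.94% higher). Icam1 ran from 774 over 1122 to 1857 in the 6 R tumors and read 610, 363, 662, 701 and 560 in the NR tumors (CC036F1 aPD1 1 and 2, CC079F1 aPD1 1 and 2, CC080F1 aPD1 1), so that the lowest R tumor, CC001F1 aPD1 1, exceeded the highest NR tumor. The difference was 1.05 ± 0.22 (adjusted p = 0.000102), a 2.07-fold higher level. Pecam1 ran from 1522 over 1881 to 2583 in R and read 731, 713, 1378, 1268 and 1481 in the same NR tumors, a difference of 0.84 ± 0.21 (adjusted p = 0.0027). R tumors were all above NR tumors for 2.57% of genes.

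Without CC036F1 the aPD1 differences of Icam1 and Pecam1 were 0.90 (DESeq2 adjusted p = 0.00372) and 0.53 (DESeq2 adjusted p = 0.0487), and in the deep libraries 1.15 (DESeq2 adjusted p = 0.000419) and 0.95 (DESeq2 adjusted p = 0.00414). In edgeR Icam1 was called (adjusted p = 0.0219) and Pecam1 was not (adjusted p = 0.0566). With line as a random term in limma neither was called (adjusted p of 0.0689 for Icam1 and 0.0658 for Pecam1). Leaving out CC079F1 aPD1 1 and CC080F1 aPD1 1, with their lymph node transcripts, left 3 NR tumors, 2 of them of CC036F1. Then 5 members were called, where 1306 of 17252 genes were. These were Icam1 at 1.11, Pecam1 at 1.15, Cdh5 at 0.77, Tek at 1.59 and Vegfa at -0.55, with DESeq2 adjusted p from 3.72e-05 to 0.0161. Vegfa was called as well without CC079F1 aPD1 2 (-0.46, DESeq2 adjusted p = 0.0474).

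In the full set of aPD1 tumors Kdr (0.57 ± 0.36, adjusted p = 0.407), Tek (0.75 ± 0.44, adjusted p = 0.359), Cdh5 (0.35 ± 0.22, adjusted p = 0.392), Angpt2 (0.34 ± 0.20, adjusted p = 0.356), Vegfa (-0.38 ± 0.15, adjusted p = 0.125), Flt1 (0.14 ± 0.20) and Vcam1 (0.11 ± 0.12) were not called. Cd93 (0.66 ± 0.15) and Adgrl4 (0.85 ± 0.19) were again the 2 of 24 identity genes called, with Notch1 (0.66 ± 0.18) and Pdgfb (0.77 ± 0.17) from the related lists. Beside them, 6 of 8 leukocyte partners, 5 of 8 macrophage genes and 4 of 6 T cell genes were higher in R tumors, and 5 of 5 skeletal muscle genes, whose sum ran from 44.2 to 14486 in R and from 37.3 to 305 in NR tumors. Glycam1, Cr2 and Fcer2a were lower, as was the adipocyte gene Adipoq. Without CC036F1, 1062 of 18976 genes were called (783 higher, 279 lower). Then 3 identity genes (Cd93, Adgrl4 and Cd34), 2 T cell genes and 1 skeletal muscle gene were higher. Notch1 was not called and 2 pericyte genes were lower. Without the tumors with lymph node transcripts, 1012 of 17252 genes were higher and 294 lower. There 10 of 24 identity genes were higher, 4 of 10 hypoxia genes lower and 1 skeletal muscle gene higher. Their part in the Icam1 and Pecam1 differences was not tested.

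In the responder lines Angpt2 and Icam1 were higher with aPD1 than with isotype antibody. Angpt2, the TIE2 ligand that primes vessels for remodelling, was 1.33-fold higher after aPD1, and Icam1 1.49-fold higher, while the VEGF receptors, Cdh5, Vegfa and Vcam1 did not pass the test. These were 2 of 9 genes tested, both higher, against 5.26% of 15701 genes (4.85% higher).

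In CC001F1, Angpt2 read 344 and 436 in isotype and 511 and 618 in aPD1 tumors. In CC002F1 the Angpt2 values were 354 and 300.0 against 459.8 and 379, and in CC075F1 450.1 and 434 against 561 and 567. In each of the 3 lines both aPD1 tumors lay above both isotype tumors (line differences of 0.54, 0.36 and 0.35), which was so for 1.83% of genes. The DESeq2 difference with line as a term was 0.41 ± 0.10 (adjusted p = 0.00469). It was 0.44 in the deep libraries (DESeq2 adjusted p = 0.0117) and 0.45 without the tumor with lymph node transcripts (DESeq2 adjusted p = 0.00555), and it stayed called with every R tumor left out in turn. In edgeR, which called 0 genes here (2621 had an unadjusted p under 0.05), Angpt2 had an adjusted p of 0.0847.

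Icam1 read 924 and 959 in isotype and 774 and 1454 in aPD1 tumors of CC001F1, which overlapped. The Icam1 values of CC002F1 were 639 and 702 against 1161 and 862, and those of CC075F1 771 and 799.8 against 1857 and 1083, with the aPD1 tumors higher in both lines. The difference was 0.57 ± 0.17 (adjusted p = 0.0231), and 0.68 in the deep libraries (DESeq2 adjusted p = 0.0156). It lost its call without the tumor with lymph node transcripts (0.56, DESeq2 adjusted p = 0.0666), in edgeR (adjusted p = 0.133) and when any 1 of 7 of the 12 tumors was left out (CC001F1 aPD1 2, CC002F1 isotype 1, isotype 2 or aPD1 1, CC075F1 isotype 1, isotype 2 or aPD1 1), with differences from 0.42 to 0.71 over all 12.

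The line means of Pecam1 were higher with aPD1 by 0.26, 0.47 and 0.34 in CC001F1, CC002F1 and CC075F1, but its tumors overlapped within each line, and at 0.37 ± 0.16 it was not called (DESeq2 adjusted p = 0.196). It was called only without CC001F1 aPD1 1 (0.46, DESeq2 adjusted p = 0.0299). Tek differed by 0.35 ± 0.28 (DESeq2 adjusted p = 0.606), Kdr by 0.11 ± 0.18 (DESeq2 adjusted p = 0.833), Vegfa by 0.11 ± 0.12 (DESeq2 adjusted p = 0.704), Vcam1 by 0.10 ± 0.10 (DESeq2 adjusted p = 0.687), Cdh5 by 0.04 ± 0.12 (DESeq2 adjusted p = 0.925) and Flt1 by -0.00 ± 0.12 (DESeq2 adjusted p = 0.994). The 95% interval of the Flt1 difference ran from -0.24 to 0.23 and that of Cdh5 from -0.20 to 0.27.

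Of the 24 identity genes 0 were called with aPD1 in R lines, and their median difference was 0.18. Notch4, an endothelial Notch receptor (0.38 ± 0.12), Pdgfb (0.34 ± 0.11) and the angiogenesis inhibitor Thbs1 (0.97 ± 0.24) rose, as did Tnfaip3, an inhibitor of NF-kappaB (0.47 ± 0.09), and Pdpn (0.29 ± 0.09). Leukocyte partners rose for 6 of 8, with Itgb2 at 0.67 ± 0.17, Itgal at 0.61 ± 0.15, Selplg at 0.60 ± 0.17 and Itgam at 0.50 ± 0.14. Macrophage genes rose for 4 of 8, and their sum ran from 73230.3 to 133106 in isotype and from 112407 to 186092 in aPD1 tumors. T cell genes were not called (0 of 6). The 7 pericyte, 10 hypoxia and 7 fibroblast genes gave 0 calls, and Glycam1 and Cr2 fell. Among R tumors Glycam1 was found only in CC002F1 isotype 1, and Cr2, found in all, was highest there (210 counts). Without that tumor 633 of 15559 genes were called. Notch4, Pdgfb and Pdpn were not among them, while 7 leukocyte partners and 3 macrophage genes were. The part of these cells in the Angpt2 and Icam1 differences was not tested.

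In the non-responder lines 0 of the 10 genes were called with aPD1, where 0.0448% of 24552 genes were. No member had an unadjusted p under 0.05 in DESeq2 or in edgeR, and 0 genes of the 16 other lists were called. Pecam1 read 984 and 759 against 731 and 713 in CC036F1, 1290.1 and 1578 against 1378 and 1268 in CC079F1, and 1576 and 1636 against 1481 in CC080F1. Its difference was -0.16 ± 0.09 (DESeq2 adjusted p = 0.957). Kdr was at -0.32 ± 0.17 (DESeq2 adjusted p = 0.956, 95% interval -0.66 to 0.02), Cdh5 at -0.24 ± 0.14, Tek at -0.26 ± 0.26, Angpt2 at -0.07 ± 0.19 and Vcam1 at -0.10 ± 0.11, while Icam1 at 0.13 ± 0.18, Vegfa at 0.13 ± 0.10 and Flt1 at 0.06 ± 0.13 lay above 0. The 95% interval of the Icam1 difference ran from -0.23 to 0.49.

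Whether the antibody effect differed between classes was tested as an interaction over the 23 tumors, and 0 of 10 genes were called (0.0342% of 26342 genes). In edgeR 0 genes were called, and 1932 had an unadjusted p under 0.05. Pecam1 came nearest, at 0.55 ± 0.20 (DESeq2 adjusted p = 0.472), with line means above isotype in all R lines and below it in all NR lines (-0.26 in CC036F1, -0.11 in CC079F1 and -0.12 in CC080F1). Angpt2 had an interaction of 0.49 ± 0.22 (DESeq2 adjusted p = 0.662) and Icam1 of 0.45 ± 0.27 (DESeq2 adjusted p = 0.866). These 2 genes, Pecam1 and Angpt2, were the members with an unadjusted p under 0.05. Without CC001F1 aPD1 1 Pecam1 was called (0.64, DESeq2 adjusted p = 0.035). The difference of the antibody effect between the classes was thus not shown for Angpt2 or Icam1.

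Across the 6 lines, 8 of the 10 genes differed in a likelihood ratio test with antibody as a term, where 16% of 19192 genes did, and the exceptions were Vcam1 (DESeq2 adjusted p = 0.913) and Sele (DESeq2 adjusted p = 0.9). Of the 8, Angpt2 (DESeq2 adjusted p = 0.0316) was not called in edgeR (adjusted p = 0.108), without the tumors with lymph node transcripts (DESeq2 adjusted p = 0.0686) and in 9 of 23 fits that left out 1 tumor (both isotype tumors and aPD1 2 of CC002F1, both aPD1 tumors of CC075F1, both isotype tumors and aPD1 1 of CC079F1, and isotype 1 of CC080F1, with DESeq2 adjusted p from 0.0512 to 0.111). Without CC036F1 2 genes remained called, Angpt2 and Icam1, where 1278 of 17808 genes were. Within classes 7 of 10 genes differed between lines, where 6.29% of genes did, among them Pecam1 (DESeq2 adjusted p = 0.00091) and Vegfa (DESeq2 adjusted p = 3.33e-05) but not Icam1. Without CC036F1 only Angpt2 remained called within classes, where 276 of 19310 genes were. Angpt2 line means were 477 ± 116 (SD, n = 4) in CC001F1, 373 ± 66.5 (SD, n = 4) in CC002F1, 503 ± 70.7 (SD, n = 4) in CC075F1, 478 ± 106 (SD, n = 4) in CC036F1, 321 ± 109 (SD, n = 4) in CC079F1 and 507 ± 66.4 (SD, n = 3) in CC080F1. CC079F1 and CC002F1 thus stood lowest in their classes. This Angpt2 call within classes (DESeq2 adjusted p = 0.0362) was not made by edgeR (adjusted p = 0.144) or without the tumors with lymph node transcripts (DESeq2 adjusted p = 0.0821) and was lost in 12 of 23 fits that left out 1 tumor.

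The genes also varied together from tumor to tumor. Since CC036F1 tumors form a cluster of their own, correlations of log2(normalized count + 1) were read over the 19 other tumors, and p-values are from permutation tests, adjusted over 45 pairs. Cdh5 rose and fell with Kdr (Pearson r = 0.774, adjusted p = 0.0018; Spearman rho = 0.751, adjusted p = 0.0157) and with Flt1 (r = 0.677, adjusted permutation p = 0.0116; rho = 0.658, 0.0462), and Kdr with Flt1 (r = 0.692, adjusted permutation p = 0.0109; rho = 0.674, 0.0436). With the 2 tumors farthest from the median of the first gene left out, r fell to 0.603, 0.501 and 0.546 for these 3 pairs, and in the 14 deep libraries it was 0.716, 0.87 and 0.691.

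Over these 19 tumors Icam1 went with Pecam1 (r = 0.764, adjusted permutation p = 0.00607; rho = 0.581, 0.116), which is also carried by leukocytes and platelets. Pecam1 and Kdr had r = 0.601 (adjusted permutation p = 0.0479), with rho of 0.53 and an adjusted p of 0.142. Kdr and Vegfa had r = -0.511, which did not pass (adjusted permutation p = 0.129). Tek and Sele had r = 0.684 (adjusted permutation p = 0.0109), with Sele at counts too low to read. Leaving out the 2 tumors with the most extreme Pecam1 brought r to 0.485 with Icam1 and 0.511 with Kdr, and in the deep libraries they were 0.863 and 0.722. In all, 6 of 45 pairs passed without CC036F1, and 20 of 45 with it. These correlations pool lines, classes and antibodies. As a description, deviations from the line and antibody group means were also correlated over the 23 tumors. There Icam1 had r = 0.774 with Kdr, 0.677 with Pecam1, 0.542 with Flt1, 0.536 with Cdh5 and 0.0808 with Tek. Icam1 thus did not go with Pecam1 more than with Kdr within groups.

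**Figure D4:**
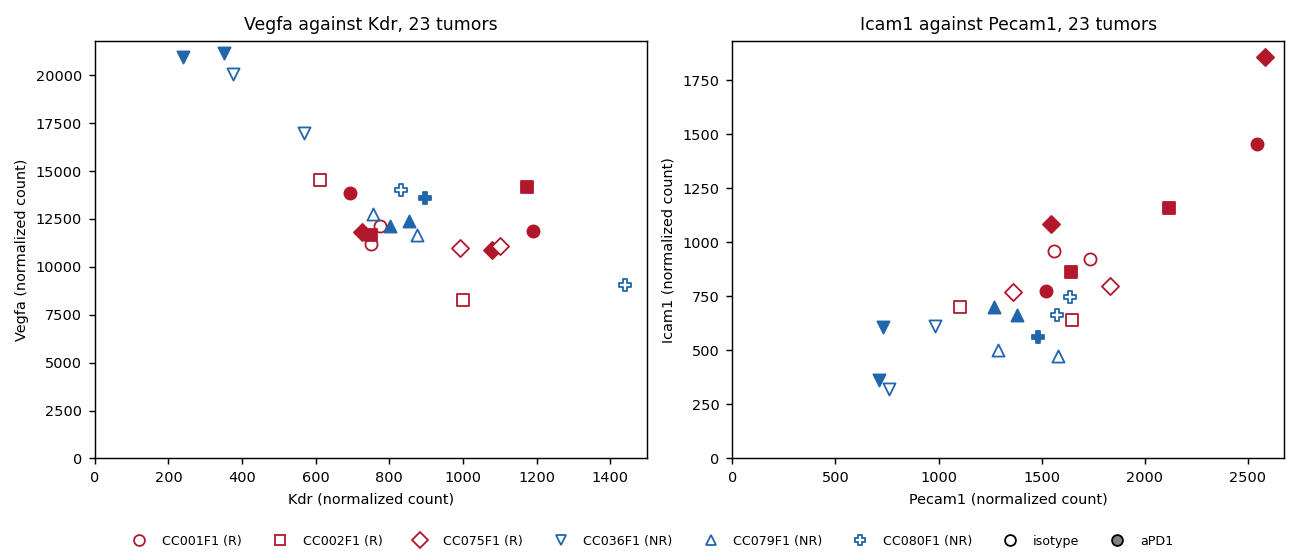
Normalized counts of each tumor for Vegfa against Kdr (left) and Icam1 against Pecam1 (right), with 1 marker a host line. The CC036F1 tumors lie apart at high Vegfa (16966 to 21159) and low Kdr (238 to 567), while Icam1 and Pecam1 rise together within the R lines up to 1857 and 2583.

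**Figure D5:**
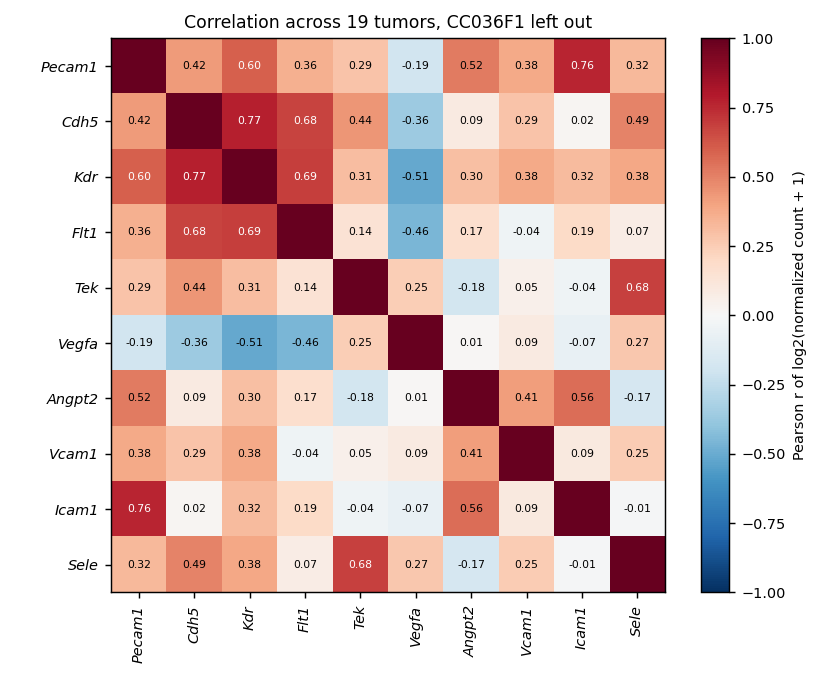
Pearson r between each pair of the 10 genes, as a colour from -1 to 1, over the 19 tumors without CC036F1 on log2(normalized count + 1). Cdh5, Kdr and Flt1 form a block (0.677 to 0.774) and Pecam1 and Icam1 a second pair (0.764). The negative r of Kdr and Vegfa (-0.511) did not pass the test.

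Among 12055 genes with a mean of at least 100 normalized counts, those closest to each member over 23 tumors are a description of shared patterns. For Pecam1 the closest was Slc29a3 (r = 0.953, and 0.898 without CC036F1), with Tmem86a and Tmsb4x next. For Cdh5 it was Dll4 (0.957 and 0.839), followed by Mcam and Nid1, for Kdr Podxl (0.958 and 0.852), followed by Nid1 and Robo4, and for Flt1 Tie1 (0.935 and 0.778), followed by Pcdh1 and Podxl. Tek was closest to Aplnr (0.91 and 0.757), then to Podxl and Nos3. The genes nearest to these last 4 members include known endothelial genes such as Dll4, Robo4, Tie1 and Nos3.

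Vegfa was closest to Bnip3 (r = 0.977, and 0.931 without CC036F1), Kdm3a and Egln1, all genes known to respond to low oxygen. Icam1 was closest to Fermt3 (0.96 and 0.957), which encodes the integrin activator of blood cells, and to Il10ra and Fcgr1, both leukocyte receptors. Angpt2 was closest to Tmem106a (0.729 and 0.795), Pip4p1 and Fbxo6, and Vcam1 to Prkar2b (0.776 and 0.732), Xlr5a and Ttc30b. Sele was closest to Psma3 (0.65 and 0.641), with Phkg2 and Lipt1 next, on few counts.

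Ratios of the factors and adhesion genes to Cdh5, a gene largely restricted to endothelium, and of Flt1 to Kdr were compared in 24 exact permutation tests (two-sided), and 0 passed after adjustment. The lowest unadjusted p was that of Flt1 over Kdr among aPD1 tumors, at a log2 ratio lower by 0.51 in R tumors (exact permutation p = 0.0173, adjusted 0.254). The Icam1 to Cdh5 ratio was higher by 0.49 in R isotype tumors (exact permutation p = 0.0238, adjusted 0.254), and the Angpt2 to Cdh5 ratio by 0.36 with aPD1 in R lines (exact permutation p = 0.0463, adjusted 0.254). Neither the Icam1 nor the Angpt2 difference was therefore shown to exceed that of Cdh5 in these tests.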

How the data were processed

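Bulk RNA-seq of 23 MC38 tumors was analysed. The authors mapped poly(A) reads with Bowtie 1.2.3 (per the submitters' processing notes) to founder transcriptomes on GRCm38 and estimated reads per gene with EMASE and gbrs. The deposited values are expected counts (estimated counts per gene, not scaled for depth), which split reads shared between genes or haplotypes. They were rounded, which moved a library total by at most 67 counts. GENCODE vM21 (the authors used vM23, on the same build) gave symbols and coordinates, with 188 of 26869 genes left unnamed.

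Tumors were grouped by the line and antibody of their labels, and lines into R and NR by the study's text. Tumors of a group are biological replicates per the labels, and all 11 pairs differed by more than counting noise (chi-square per degree of freedom 9.158 to 123.0). Differences were tested with DESeq2 1.42.0 (Wald or likelihood ratio test, default options, R 4.3.3), the study's method, on genes with at least 5 summed counts, and called at an adjusted p under 0.05. R against NR treated tumors of a line as independent, so its p-values are too small for the 7 members that differed between lines of a class. They may be too small for the other members too, since finding no line difference does not make tumors of a line independent. Antibody effects had line as a term. Counts per kb divide normalized counts by exon length. Line differences, two-sided correlation tests (100000 permutations) and ratios used log2(normalized count + 1) in Python 3.11.15 with scipy 1.17.1.

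Alternatives were edgeR 4.0.16, TMM size factors, no filter, a filter of 10 counts in 3 libraries, deep libraries (over 30000000 counts), a replicate block, limma 3.58.1 (voom, lines as random effects, R against NR), a pseudocount of 0.5 and each tumor left out. The fits were tested on simulated data. The 10 members and the 16 other lists were chosen with earlier results of these data known. Named genes were all members, at most 4 called genes a list and comparison by lowest adjusted p, and for likeness the 3 genes with the highest r. Beyond these, genes were named after their values were seen where a list had a single exception.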

Additional observations from a re-analysis of the deposited data

Results flagged for a closer look

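In 90 checks for a tumor far from the others of its line or of its class and antibody group (at least 4 tumors), 4 values were flagged. Chance alone gives about 1 in 20 groups, a rate that 4 of 90 does not exceed. Angpt2 in CC079F1 aPD1 1, 1 of the tumors with lymph node transcripts, was 209 normalized counts, against 407 to 478 in the other 4 NR aPD1 tumors. Cdh5 in CC001F1 isotype 2 was 1417, against 1775 to 1846 in the other CC001F1 tumors. Kdr in CC001F1 aPD1 2 was 1190, against 694 to 775 in the rest of that line. Tek in CC002F1 aPD1 1 was 171, against 84.8 to 90.1 in the other CC002F1 tumors. Their part in the line and class differences is covered by the fits that left each tumor out.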

How the results depend on the processing

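The 6 differences of CC036F1 (Tek, Kdr, Cdh5, Pecam1, Flt1 and Vegfa) kept direction and call in each alternative and with each tumor left out, and so did the Icam1 difference between R and NR lines over all tumors. Calls of members that did not hold are given with their values in the report or here. Settings chosen after the data were seen are those without the line CC036F1, without the 3 tumors with lymph node transcripts, and each line against the other lines of its class. Where no cause is named, the cause was not tested. Depth limits Sele, at 171 counts over all tumors, and the 6 shallow libraries limit the low Tek counts.

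Without CC036F1, members called fell from 3 to 1 for R against NR over all tumors, from 1 to 0 for isotype tumors, from 8 to 2 among the 6 lines and from 7 to 1 within classes, and correlated pairs from 20 to 6. Genes called were then 366 in isotype tumors, 29 for aPD1 in NR lines (11), 24 for the interaction (9), 1278 among lines (3067) and 276 within classes (1208). Over all tumors Cdh5, Kdr, Flt1 and Tek turned to -0.085, -0.024, -0.10 and -0.15, and in isotype tumors to -0.15, -0.16, -0.033 and -0.42. In aPD1 tumors Cdh5 turned to -0.0063 and Flt1 to -0.18, Angpt2 with aPD1 in NR lines to 0.017, and the Vegfa interaction to 0.0200. The correlation of Tek with Vegfa turned to 0.246. The ratio of Vegfa to Cdh5 turned to 0.10 and that of Angpt2 to Cdh5 to 0.11 in isotype tumors, that of Angpt2 to Cdh5 to 0.50 in aPD1 tumors, and that of Flt1 to Kdr to 0.11 in isotype tumors.

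Without the tumors with lymph node transcripts, members called were 5 for R against NR in aPD1 tumors (2 with all) and 1 for aPD1 in R lines (2). In these fits 1306 of 17252 and 633 of 15559 genes were called. Genes called were 402 in isotype tumors, 101 for aPD1 in NR lines, 24 for the interaction, 49 for CC002F1 (80), 931 for CC036F1 (1833) and 89 for CC080F1 (195). Over all tumors Angpt2 turned to -0.027 and Vcam1 to 0.0200, in isotype tumors Cdh5 to -0.0061 and Tek to -0.049, with aPD1 Angpt2 in NR lines to 0.12 and Flt1 in R lines to 0.087, and the ratio of Vegfa to Cdh5 with aPD1 in R lines to -0.16.

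In edgeR, members called were 0 in isotype tumors, 1 in aPD1 tumors and 0 for aPD1 in R lines, where 2621 genes, 3 of them members, had an unadjusted p under 0.05. Genes called by edgeR were 30 in isotype tumors, 560 in aPD1 tumors (1361 in DESeq2), 0 for aPD1 in R lines (826), 5 in NR lines, 0 for the interaction (1932 at an unadjusted p under 0.05), 1666 among lines, 502 within classes, 24 for CC001F1 (72), 20 for CC002F1, 33 for CC075F1 (76), 1017 for CC036F1, 13 for CC079F1 (81) and 64 for CC080F1. In limma with line as a random term, 2 members were called over all tumors (3 in DESeq2), 0 in isotype and 0 in aPD1 tumors, genes called were 1622 for the 23 tumors (2548), 3 among isotype and 199 among aPD1 tumors, and Vcam1 over all tumors turned to 0.018. With TMM size factors 7 genes were called for aPD1 in NR lines and with the stricter filter 4.

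In deep libraries alone, members called were 0 in isotype tumors and 1 for CC079F1 (Angpt2, -0.95). Genes called were 1668 over all tumors, 44 in isotype tumors, 44 for aPD1 in NR lines, 50 for the interaction and 118 for CC080F1. Vcam1 over all tumors turned to 0.021, Tek in isotype tumors to -0.0056, Flt1 with aPD1 in R lines to 0.024, Cdh5 in NR lines to 0.0099, the Vegfa interaction to 0.0499 and the ratio of Angpt2 to Cdh5 with aPD1 in NR lines to -0.22. With Pecam1 in place of Cdh5 the Vegfa ratio with aPD1 in R lines turned to -0.22.

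Replicate numbers appear in the labels of each group, but the same-number correlations of aPD1 and isotype tumors were 0.368, 0.0624 and -0.202 in CC001F1, CC002F1 and CC075F1 and 0.202 and 0.115 in CC036F1 and CC079F1, so the numbers were not taken to pair tumors. With the replicate number as a block, 21 genes were called for the interaction and 123 for CC079F1, Flt1 with aPD1 in R lines turned to 9.2e-05 and the Vegfa interaction to 0.064, and Angpt2 within classes lost its call (DESeq2 adjusted p = 0.053).

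With 1 tumor left out at a time, genes called ran from 402 to 1838 in isotype tumors, from 327 to 1386 for aPD1 in R lines, from 2 to 242 in NR lines, from 4 to 305 for the interaction, from 49 to 187 for CC002F1, from 1153 to 2082 for CC036F1, from 49 to 237 for CC079F1 and from 90 to 275 for CC080F1. Members called ran from 0 to 1 in isotype tumors, the interaction, CC002F1 and CC079F1, and from 1 to 3 for aPD1 in R lines. The calls gained were Pecam1 without CC001F1 aPD1 1, Angpt2 of CC002F1 without CC001F1 isotype 1 (-0.43) or aPD1 1 (-0.41), and in CC079F1 Angpt2 without CC079F1 aPD1 2 (-0.90) and Vegfa without CC080F1 isotype 2 (-0.54). Among differences not called that changed sign, over all tumors Angpt2 ran from -0.039 to 0.12 and Vcam1 from -0.053 to 0.025, and in isotype tumors Cdh5 from -0.084 to 0.17, Kdr from -0.032 to 0.36 and Tek from -0.19 to 0.22. With aPD1 in R lines Cdh5 ran from -0.044 to 0.10, Kdr from -0.023 to 0.21 and Flt1 from -0.082 to 0.087, and in NR lines Flt1 from -0.018 to 0.17 and Angpt2 from -0.27 to 0.055. The interaction ran from -0.16 to 0.0325 for Flt1 and from -0.11 to 0.092 for Vegfa, and Vcam1 in CC036F1 from -0.18 to 0.081. Of the ratios, Vegfa to Cdh5 with aPD1 in R lines ran from -0.16 to 0.31, Angpt2 to Cdh5 from -0.45 to 0.17 in aPD1 tumors and from -0.12 to 0.41 with aPD1 in NR lines, and Flt1 to Kdr from -0.091 to 0.054 in isotype tumors and from -0.17 to 0.0035 with aPD1 in R lines.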
